A study of Mus musculus with 2 samples.

Results

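The 9 genes described here belong to the T cell receptor's signalling chain: Cd3d, Cd3e, Cd3g and Cd247, which encode the CD3 delta, epsilon, gamma and zeta chains, the kinases Lck, Zap70 and Fyn, and the adaptors Lat and Lcp2. They were chosen by symbol, and 9 of 9 were found in both matrices among 27998 listed genes. The CD3 chains carry the signal of the receptor, whose own alpha and beta chains have no signalling tail. Lck, and in part Fyn, phosphorylates the CD3 chains, Zap70 then docks on the zeta chain, and Zap70 phosphorylates the adaptors Lat and SLP-76 (the product of Lcp2), on which the downstream enzymes assemble. NK cells lack the receptor but are known to use zeta, Lck, Fyn and SLP-76 behind other receptors. The cells were CD45.1+ leukocytes that had been sorted out of pancreas tissue. The mice were females of NOD/ShiLtJ, in which autoimmune diabetes arises spontaneously. One group was 7 weeks old and the other 12 weeks old, with 1 library each, and nothing else separated the groups in the labels. The labels do not say how many mice went into a library. Age and library therefore cannot be told apart, no test between ages was possible, and the intervals given are exact 95% intervals for counting error only.

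The CD3 delta, epsilon and gamma genes lie side by side, and the sequences before their starts are shown because the age comparison turned on how these neighbours differed. In the mm10 build, Cd3g spans chr9:44969572-44980431 on the minus strand, Cd3d chr9:44981786-44987339 on the plus strand and Cd3e chr9:44998740-45009627 on the minus strand. Cd3g and Cd3d are transcribed away from each other from starts 1355 bases apart, and the Cd3e start lies 27841 bases from that of Cd3d. The other members lie elsewhere: Cd247 and Zap70 on chromosome 1, Lck on chromosome 4, Lat on chromosome 7, Fyn on chromosome 10 and Lcp2 on chromosome 11. Cd247 is overlapped on the opposite strand by Pou2f1 and Gm37469, and Fyn by Gm16364 and Gm16365. RefSeq promoters (GRCm38.p6) were matched for 9 of 9 members. The RefSeq start of Cd3e lies inside the span given above, so its window, chr9:45009612-45009861, overlaps the end of that span. The 250 bases before each CD3 start in RefSeq follow, 5′ to 3′ on the gene's strand. GGAA and its reverse complement TTCC, the core of ETS factor sites, are in capitals.
Cd3g: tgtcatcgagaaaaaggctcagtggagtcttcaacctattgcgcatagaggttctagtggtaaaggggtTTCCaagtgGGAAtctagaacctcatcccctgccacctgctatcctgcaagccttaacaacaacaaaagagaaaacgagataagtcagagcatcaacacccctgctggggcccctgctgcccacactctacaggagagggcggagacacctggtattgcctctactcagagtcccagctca
Cd3d: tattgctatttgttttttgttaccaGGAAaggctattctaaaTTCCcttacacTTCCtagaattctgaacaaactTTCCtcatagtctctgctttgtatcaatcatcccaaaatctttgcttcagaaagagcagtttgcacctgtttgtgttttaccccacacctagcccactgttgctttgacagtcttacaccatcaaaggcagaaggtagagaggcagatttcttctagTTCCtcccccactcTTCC
Cd3e: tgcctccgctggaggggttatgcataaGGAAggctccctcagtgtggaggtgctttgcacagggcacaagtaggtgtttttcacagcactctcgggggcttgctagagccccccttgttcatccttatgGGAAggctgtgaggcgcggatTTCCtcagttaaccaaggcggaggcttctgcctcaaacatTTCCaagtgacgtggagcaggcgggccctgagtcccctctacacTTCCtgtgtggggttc
The core stood 2 times before Cd3g, 6 times before Cd3d and 5 times before Cd3e. It is common, being present in 93.4% of 32851 mouse promoters of this table. CTTTGA, a TCF/LEF motif searched on both strands, stood 2 times before Cd3d and in neither neighbour, and 13.8% of promoters held it. AGATAA, a motif of GATA factors, stood 1 time before Cd3g (9.99% of promoters), and none of the 3 windows held TATAAA (12.4% of promoters). These matches are letters in a window and not mapped sites.

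The libraries held 1113 and 2812 barcodes with 8701184 and 19288252 UMIs (unique molecular identifiers, each a counted transcript copy), a median of 5643 and 4960.5 per barcode. After filtering, 1107 and 2796 cells were clustered without the 9 genes, so that their levels did not define the clusters. In all, 8 clusters made up the T cell classes, with 682 and 1677 cells and a median of 5514.5 and 4822 UMIs. They were 2 naive T-like clusters (1 with Cd4, and 5 with Cd8a), CD4 T-like cells led by Tnfsf8, Tnfsf11 and Il21 (cluster 2), CD8 T-like cells (3) and regulatory T-like cells (8). A further 3 had no name by the markers: cluster 4 (Tnfrsf25, Cd40lg, Il7r), cluster 10 (Il10, Il21, Prdm1, Lag3) and cluster 7, led by cell division genes, which held cells with Cd4 and cells with Cd8a. Also read were 3 clusters named by innate lymphocyte markers. Cluster 9 was NK or ILC1-like, led by Kcnj8, Ncr1 and Klra genes (67 and 62 cells). Cluster 15 was NK or ILC1-like, led by Klra8, Gzma and S1pr5 (25 and 18 cells). Cluster 14 was ILC2-like (17 and 29 cells). These names rest on markers other than the 9 genes. In cluster 9, 91.0% and 93.5% of cells had a UMI of Cd3d, Cd3e or Cd3g in the full counts. Whether cluster 9 holds T cells with Ncr1 or innate cells was not tested. The libraries shared 2 barcodes. Some doublets remain, since 10 and 17 cells carried at least 2 Cd3e UMIs together with at least 2 of the B cell gene Cd79a.

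The members marked the T cell classes against B cells. With each cell thinned to 2000 UMIs, 99.0% of T class cells at 7 weeks and 99.3% at 12 weeks had a UMI of Cd3d, Cd3e or Cd3g, against 19.5% and 12.6% of the B-like cells of cluster 0. Whether free RNA or doublets carry these UMIs in B-like cells was not tested. In them, 2 or more such UMIs were found in 1.26% and 1.77% of cells. Single thinned cells seldom showed every chain: all 3 were present together in 58.5% and 55.2% of T class cells. Zap70 was seen in 28.6% and 28.9% of thinned T class cells, Lcp2 in 19.6% and 21.5%, and Fyn in 24.3% and 17.2%. A missing UMI in a single cell is therefore no sign that the gene is silent.

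Levels below are in CPM (counts per 1000000), the UMIs of the gene over all UMIs of the cluster in a library. Cd3g stood at 3073 and 3705 CPM in cluster 10 at 7 and 12 weeks, at 1760 and 2194 in regulatory T-like cluster 8, at 1644 and 1935 in CD4 T-like cluster 2 and at 1494 and 1658 in CD8 T-like cluster 3. It was lower in cluster 4 (1327 and 1377), in naive T-like clusters 5 (1055 and 1219) and 1 (1048 and 1149), and lowest in dividing cluster 7 (979 and 1095). That order was the same in both libraries. Neighbours in it had overlapping intervals in 5 of 7 pairs at 7 weeks and 2 of 7 at 12 weeks, and cluster 10 stood apart from cluster 8 at both ages.

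Cd3d followed, with 1522 and 1798 CPM in cluster 10, 1241 and 1532 in cluster 8, 1212 and 1373 in cluster 3 and 689 and 834 in cluster 7. Cd3e was also highest in cluster 10, at 1003 and 1090, and lowest in naive T-like cluster 1, at 506 and 400. Cd247 was highest in cluster 10 (480 and 653) and cluster 2 (472 and 443). Each of the other T clusters lay between 175 and 286 at 7 weeks and between 206 and 260 at 12 weeks, so the zeta gene separated these 2 Il21-positive clusters from the rest more than Cd3d did. Cluster 10 held only 34 cells at 7 weeks and 83 at 12 weeks.

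Among the kinases, Zap70 had the widest span at 7 weeks and Fyn at 12 weeks. Zap70 stood at 394 and 360 CPM in cluster 10, 262 and 278 in cluster 2 and 246 and 280 in cluster 8, against 68.5 and 91.3 in naive T-like cluster 5 and 90.7 and 109 in cluster 1. Its highest level was 5.75 times its lowest at 7 weeks and 3.94 times at 12 weeks. Lck varied least at 12 weeks, from 570 in cluster 1 to 948 in cluster 10, a ratio of 1.66, and at 7 weeks its ratio was 2.13. Fyn had another order: it was highest in cluster 2 at 7 weeks (187) and in CD8 T-like cluster 3 at 12 weeks (187), and low in naive T-like clusters 1 (55.4 and 54.1) and 5 (58.2 and 33.6). All 7 neighbour pairs in the order of Fyn had overlapping intervals at both ages.

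The adaptor Lat was highest in cluster 10 (759 and 952) and lowest in cluster 5 (377 and 389). Its level in regulatory T-like cluster 8 (534 and 555) lay below that of CD4 T-like cluster 2 (700 and 752), where Zap70 and Lck were close in the same 2 clusters. Lcp2 was highest in cluster 2 at 7 weeks (177) and cluster 10 at 12 weeks (211), and lowest in cluster 5 (51.4 and 71.8). The naive T-like clusters were thus the 2 lowest T clusters for each of the 5 kinase and adaptor genes.

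**Figure D1:**
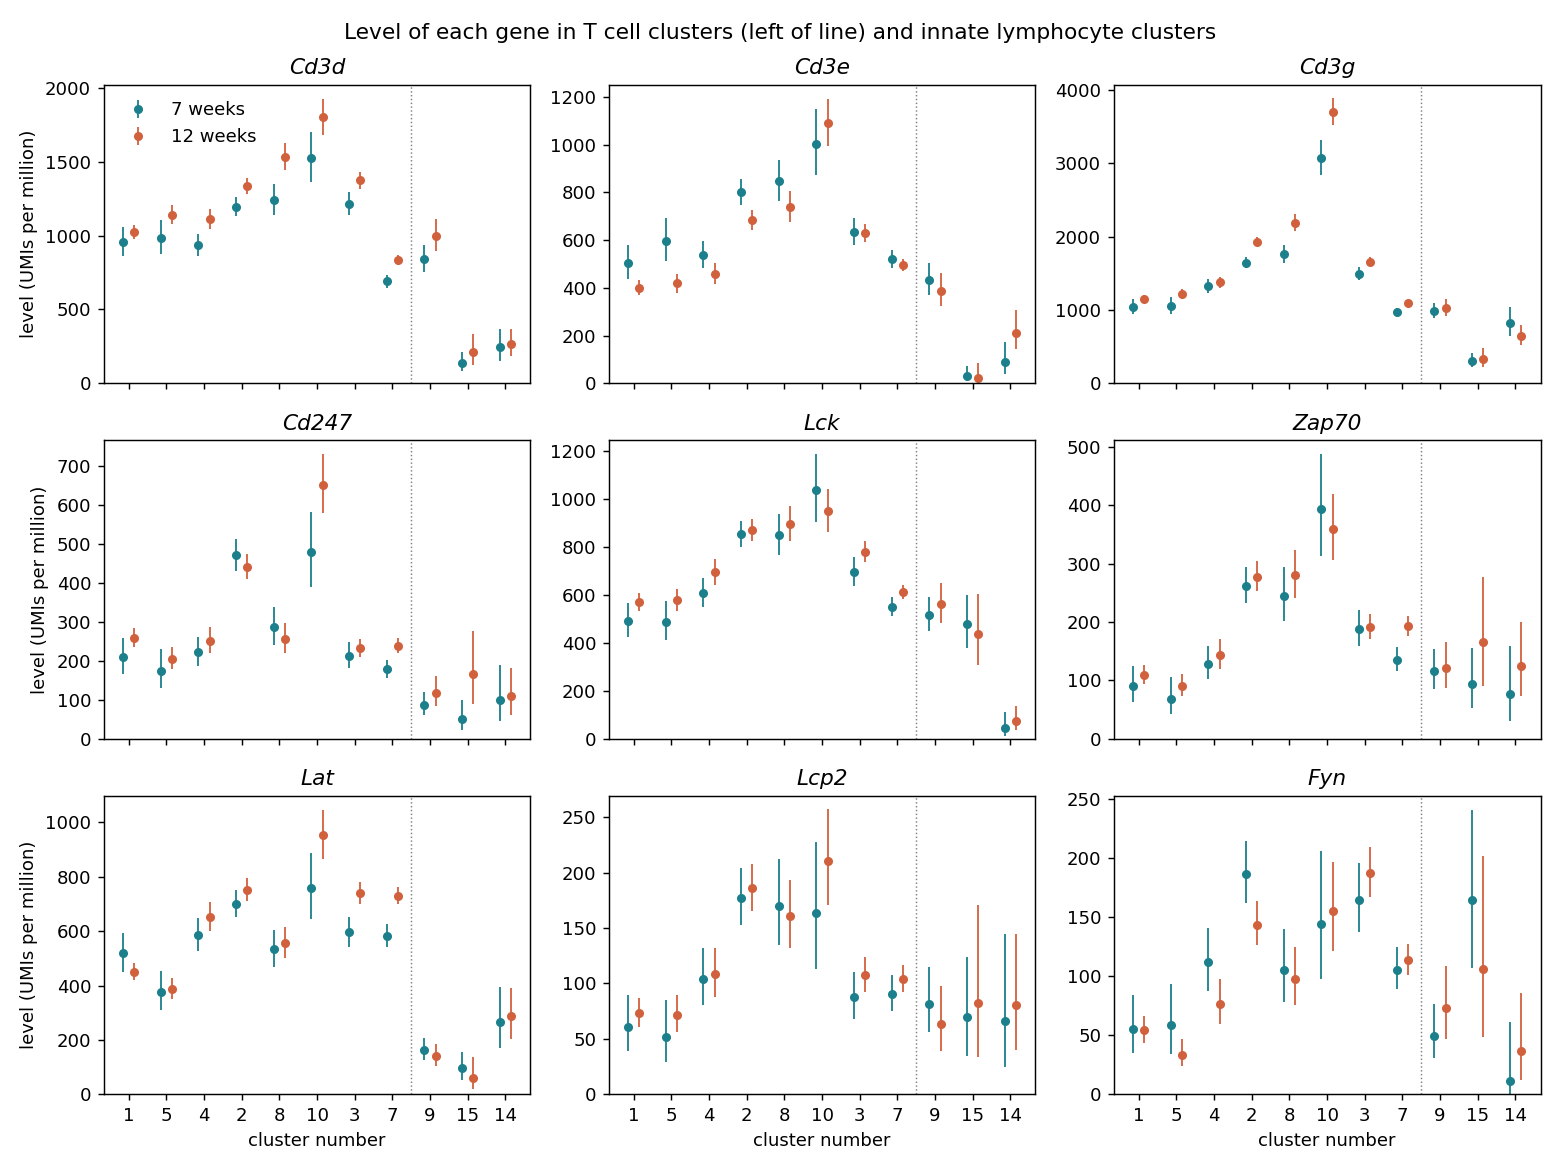
Level of each member (CPM, linear axes from 0) in 8 T cell clusters, left of the dotted line, and in clusters 9, 15 and 14. Clusters 9, 15 and 14 were named by innate lymphocyte markers. Points are for 7 and 12 weeks, with bars for exact 95% counting intervals. Cluster 10 was highest for 7 of the 9 genes at both ages, and Lat was low in clusters 9 and 15.

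Dividing cluster 7 shows that a low share of the transcriptome is not a low number of transcripts per cell. Its cells held a mean of 20.5 and 19.97 Cd3g UMIs each, against 5.20 and 5.26 in naive T-like cluster 1, while its Cd3g level in CPM was the lower of the pair. The median UMI total per cell was 16431 in cluster 7 and 4478.5 in cluster 1. Within cluster 7, cells with a Cd4 and no Cd8a UMI (30 and 64 cells) had more Cd247, at 222 and 329 CPM, than cells with Cd8a and no Cd4 (24 and 53 cells), at 137 and 158. Fyn went the other way, at 83.1 and 87.9 in the Cd4 cells and 135 and 154 in the Cd8a cells. The same ordering was seen for Cd247 between clusters 2 and 3 at both ages, but for Fyn only at 12 weeks.

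The mix of CD3 transcripts was read as each gene's share of the UMIs of Cd3d, Cd3e and Cd3g together. Capture differs between genes, so the shares are compared between clusters and ages only. In the joined T classes, Cd3e made up 21.1% at 7 weeks (interval 20.5 to 21.8) but 17.2% at 12 weeks (16.8 to 17.6). Cd3d rose from 33.3% to 35.7% and Cd3g from 45.6% to 47.1% of these UMIs. Cluster 10 was rich in Cd3g, at 54.9% and 56.2%, and poor in Cd3d, at 27.2% and 27.3%. CD8 T-like cluster 3 and dividing cluster 7 held Cd3g at 44.7% to 45.3%.

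**Figure D2:**
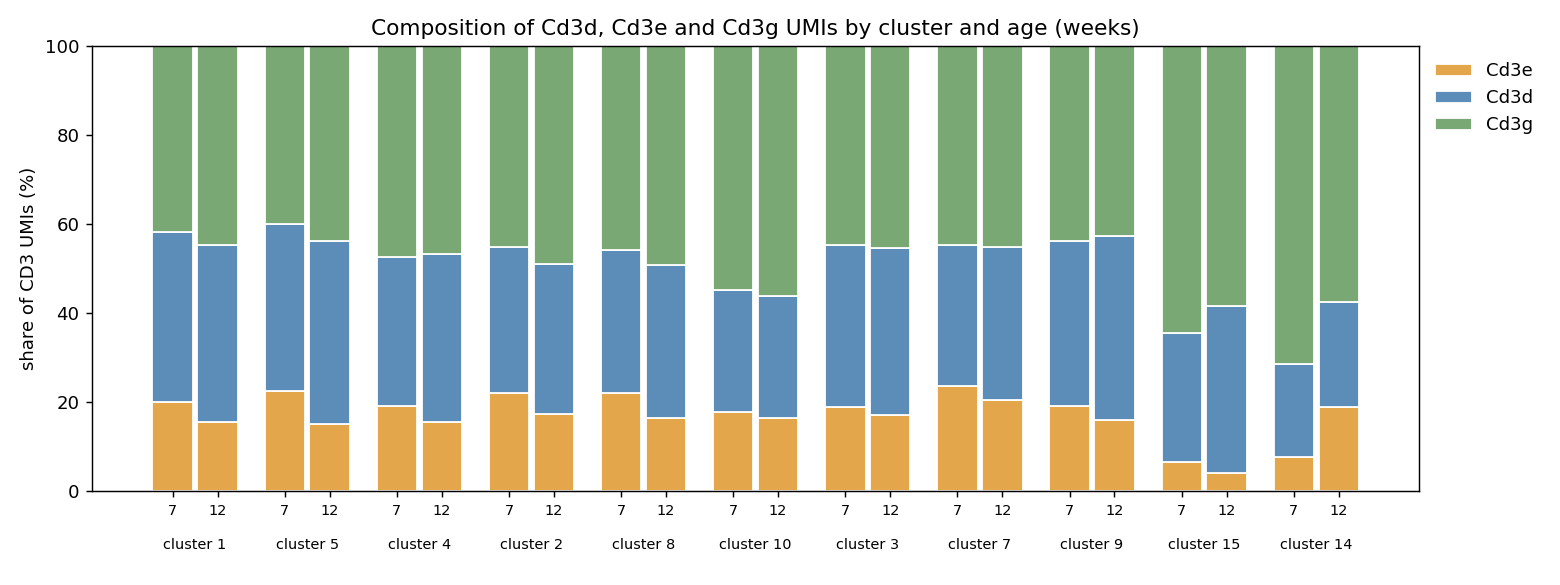
Share of Cd3d, Cd3e and Cd3g UMIs (% of their sum, stacked to 100) in each cluster at 7 and 12 weeks. The Cd3e part was smaller at 12 weeks in all 8 T cell clusters, and clusters 15 and 14 were mostly Cd3g.

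In the joined T classes, 0 of 9 members moved past 1.5-fold between ages, where 12.6% of the 10136 genes with at least 30 UMIs did. With 9 genes, that count does not set the members apart from other genes. The share also takes in genes with as few as 30 UMIs over both libraries. The fewest of a member were 598 at 7 weeks (Lcp2) and 1195 at 12 weeks (Fyn). The mix of T clusters differed between the libraries. Naive T-like clusters 1 and 5 held 80 and 52 of the 682 T class cells at 7 weeks. At 12 weeks they held 380 and 208 of 1677. The joined ratios take in this mix as well as the levels within clusters. Cd3d went from 1023 CPM at 7 weeks to 1160 at 12 weeks, a ratio of 1.13 (1.10 to 1.17). Cd3g went from 1402 to 1531, a ratio of 1.09 (1.06 to 1.12). Cd3e went the other way, from 650 to 559, a ratio of 0.860 (0.824 to 0.897). The interval of Cd3e thus did not overlap those of its 2 neighbours on the chromosome.

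Cd247 (275 to 288, ratio 1.05), Zap70 (182 to 191, 1.05), Lck (680 to 705, 1.04) and Lcp2 (115 to 117, 1.02) had intervals that included 1. Lat went from 596 to 649, a ratio of 1.09 (1.04 to 1.14). Fyn went from 127 to 110, a ratio of 0.864 (0.785 to 0.952). With every cell thinned to 2000 UMIs, Lck turned to 0.979 and Cd3d shrank to 1.05, while Fyn lay at 0.713. The ratio of Zap70 also fell below 1, to 0.969, when T cells were taken by gates from all deposited barcodes.

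Cluster by cluster, Cd3e was below 1 in 7 of the 7 T clusters holding 50 or more cells at each age. Its ratio ran from 0.702 (0.588 to 0.841) in cluster 5 to 0.991 (0.890 to 1.11) in cluster 3, and 4 of the 7 intervals lay wholly below 1. Of 3534 genes with 30 UMIs in every T cluster, 6.2% were below 1 in all 7. Cd3d, Cd3g, Lck and Zap70 were above 1 in all 7, as were 7.89% of those genes. The intervals lay wholly above 1 in 6 clusters for Cd3d, 5 for Cd3g, 3 for Lck and 1 for Zap70 (cluster 7, 1.42). Thinning brought Cd3e to 1.03 in cluster 2 and 1.001 in cluster 8, and Cd3d to 0.993 in cluster 2.

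Fyn differed most between clusters. It lay at 0.576 (0.315 to 1.09) in naive T-like cluster 5, 0.687 (0.486 to 0.970) in cluster 4 and 0.770 (0.635 to 0.933) in cluster 2, but at 1.14 (0.924 to 1.41) in CD8 T-like cluster 3. Fyn in cluster 5, on 17 and 36 UMIs, was the single one of 63 gene and cluster pairs past 1.5-fold, against 18.9% of all such pairs tested. Those pairs were not matched to the members in UMI number, and pairs with few UMIs pass a fold more easily. Cd247 was higher at 12 weeks in dividing cluster 7, with a ratio of 1.33 (1.15 to 1.56), and lay at 0.937 (0.836 to 1.05) in cluster 2. Lat was above 1 in cluster 3 (1.24) and cluster 7 (interval 1.15 to 1.36), with both intervals above 1. Cluster 7 also differed in makeup between ages. Its Ncr1 stood at 28.1 and 0.371 CPM, Fcer1g at 31.1 and 9.26, Cd4 at 88.1 and 153 and Cd8a at 291 and 406. The part of this makeup in the cluster 7 ratios of Cd247, Lat and Zap70 was not tested. In cluster 10, with too few cells at 7 weeks for the comparison, Cd3e was 1.09 (0.922 to 1.28) and Cd3g 1.21 (1.10 to 1.32).

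**Figure D3:**
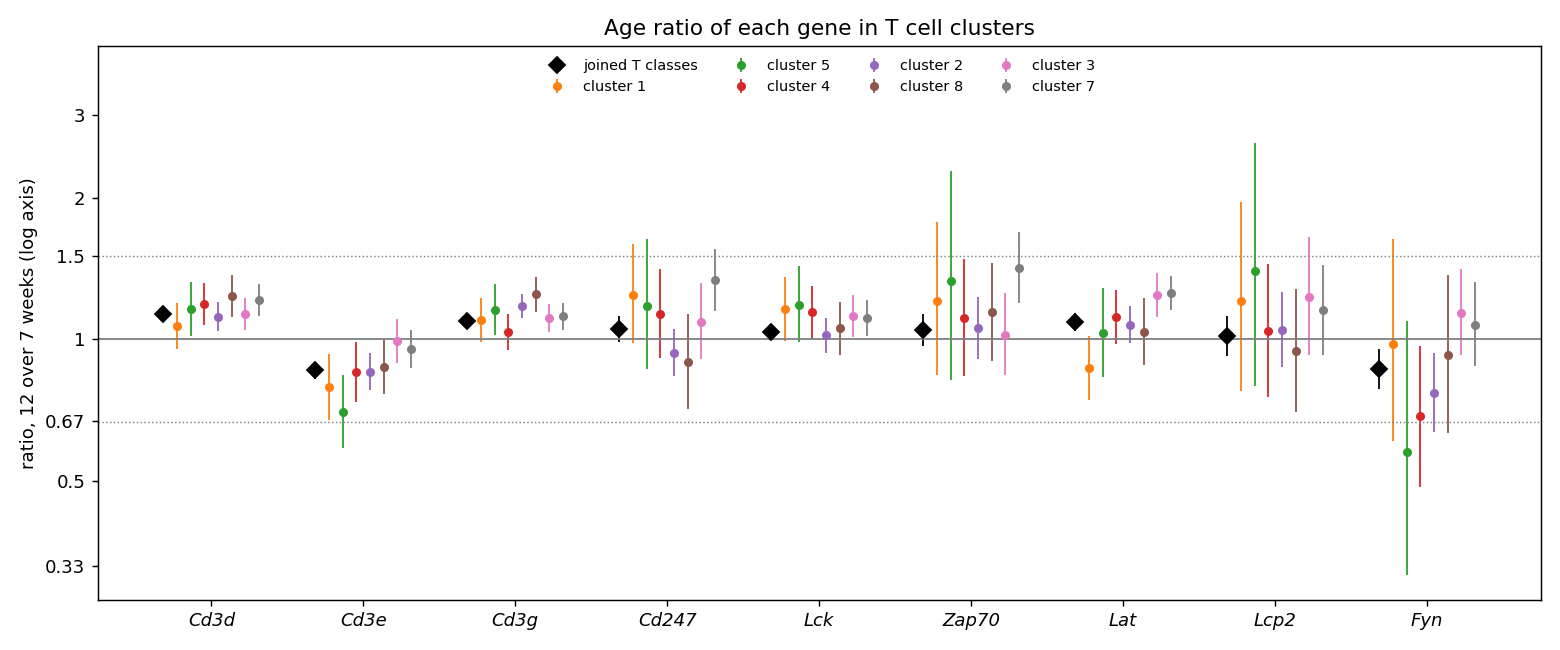
Ratio of the level at 12 weeks to that at 7 weeks (log axis) for each member in the joined T classes (diamonds) and 7 T cell clusters (points), with exact 95% counting intervals and dotted lines at 1.5-fold. Cd3e lay below 1 and Cd3d and Cd3g above 1 in each cluster.

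Other genes of the pathway were read from 3 lists in the joined T classes, whose mix of clusters differed between ages. Of 24 genes that pass the signal on, such as the adaptor Fyb, 0 were past 1.5-fold higher (4.36% of all genes) and 2 past it lower (8.25%). These were Grb2, an adaptor that binds phosphorylated Lat, at 71.6 and 36.3 CPM (ratio 0.508), and Nfatc1, a transcription factor downstream of calcium, at 94.3 and 62.3 (0.660). Of 20 genes that restrain the signal, such as the kinase Csk and the phosphatase Ptpn22, 0 were past 1.5-fold in either direction, and the lowest ratio was that of the phosphatase Dusp2, 0.725. Of 15 coreceptor and costimulation genes, 1 was past it, the adaptor Trat1, at 16 and 58 UMIs (1.73, interval from 0.980). The inhibitory receptor Ctla4 lay at 0.715 and the costimulatory receptor Cd28 at 1.13. The median log2 ratio was 0.07 over the members, 0.06, -0.06 and 0.12 over these lists in turn, and 0.01 over all genes tested.

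Cells with at least 1 UMI of Ncr1, which encodes the NK receptor NKp46, and no Cd4 UMI numbered 79 at 7 weeks and 72 at 12 weeks. Of these, 46 and 44 were in cluster 9, 22 and 17 in cluster 15, and 3 and 4 in the B-like cluster 0. At 7 weeks, T clusters 1, 3 and 5 held 1 each and T clusters 4 and 7 held 2 each. At 12 weeks, T clusters 3 and 5 held 1 each. The most CD3 UMIs in such a cell at 7 weeks, 74, lay in a cell outside clusters 9 and 15. Thinned to 2000 UMIs, 67.1% (55.6 to 77.3) and 68.1% (56.0 to 78.6) of the 79 and 72 cells had a UMI of Cd3d, Cd3e or Cd3g. These shares lay above the B-like share and below the T class share given before. Without thinning the shares were 81.0% and 81.9%. All 3 CD3 genes were seen in the same cell in 31 and 32 of these cells (39.2% and 44.4%, unthinned). Cd3d was seen in 54 and 51 cells, Cd3g in 52 and 54, and Cd3e in 35 and 35.

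The CD3-positive cells were mostly in cluster 9. Its Ncr1-positive cells held a median of 12.5 and 12 CD3 UMIs, up to 30 and 33, and all 3 genes were seen in 56.5% and 68.2% of them. In cluster 15 the median was 2 at both ages, and all 3 genes were seen together in 0 of 22 and 0 of 17 cells, with upper limits of 15.4% and 19.5%. Cd3e was seen in only 3 and 2 of those cells, while Cd3d was seen in 11 and 9 and Cd3g in 11 and 10. Cells with 5 or more CD3 UMIs numbered 33 of 46 and 37 of 44 in cluster 9, against 6 of 22 and 4 of 17 in cluster 15. The shares at 7 and 12 weeks had overlapping intervals in each cluster.

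**Figure D4:**
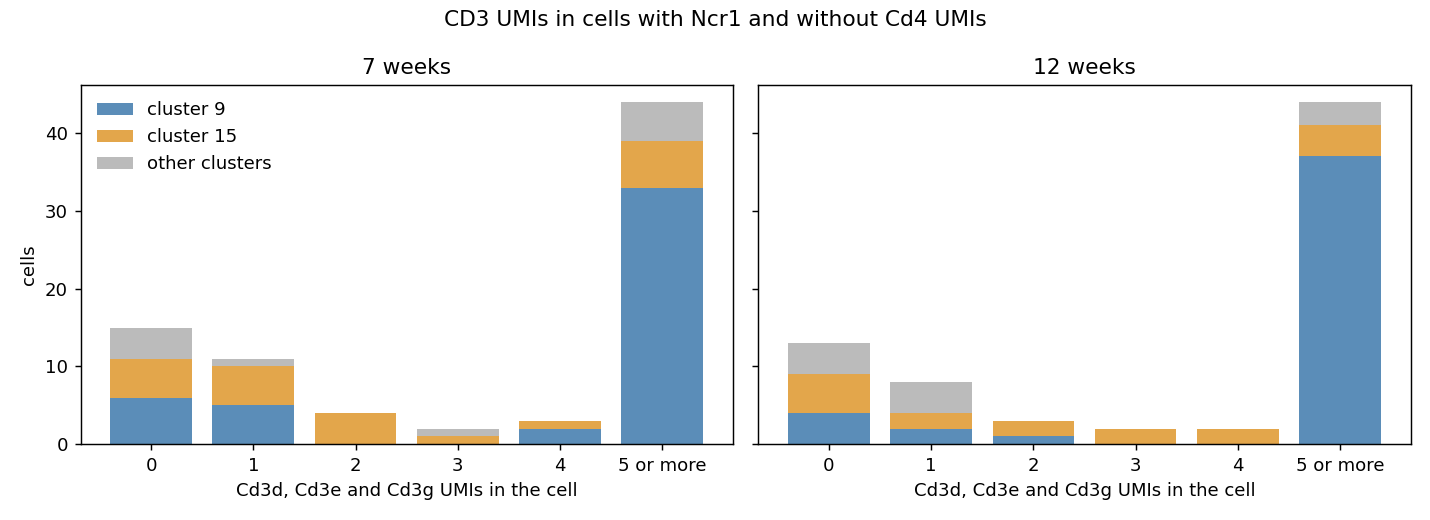
Number of cells by their UMIs of Cd3d, Cd3e and Cd3g together, among cells with an Ncr1 UMI and no Cd4 UMI (79 at 7 weeks, 72 at 12 weeks), coloured by cluster. Cells with 5 or more CD3 UMIs numbered 44 at each age and lay mostly in cluster 9.

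The other 6 members were compared between Ncr1-positive cells with and without CD3 UMIs. Ncr1-positive cells with 2 or more CD3 UMIs (53 and 51) were set against those with 0 (15 and 13). These groups differed in makeup. Cluster 9 gave 35 and 38 of the CD3-positive cells and 6 and 4 of the others, and cluster 15 gave 12 and 10 against 5 and 5. The gate also took in cells of T clusters, 2 of them from dividing cluster 7 at 7 weeks. Median UMI totals were 6265 and 4910 against 4798 and 5202. The part of makeup and depth in these ratios was not tested. Lat stood at 168 and 143 CPM in the CD3-positive cells and at 36.8 and 11.6 in the others, ratios of 4.55 (1.49 to 22.7) and 12.4 (2.09 to 501). Zap70 stood at 119 and 147 against 49.1 and 46.2, ratios of 2.42 (0.883 to 9.29) and 3.17 (1.15 to 12.2), and the 7 week ratio became 0.967 after thinning. Lcp2 had 30 UMIs against 0 at 7 weeks and 20 against 3 at 12 weeks, where its ratio was 2.17 (0.644 to 11.4). The reference cells held only 3 and 1 UMIs of Lat and 4 and 4 of Zap70.

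Lck was present both in cells with CD3 UMIs and in cells where no CD3 UMI was seen. It stood at 481 and 534 CPM in the CD3-positive cells and at 319 and 300 in those with 0 CD3 UMIs, ratios of 1.51 (0.996 to 2.37) and 1.78 (1.16 to 2.81), and the 12 week ratio was 0.988 where 2 Ncr1 UMIs were required. Cd247 had ratios of 3.53 (0.900 to 30.4) and 1.84 (0.766 to 5.38), and Fyn 2.76 (0.687 to 24.0) and 1.14 (0.358 to 4.75), on 2 to 6 UMIs in the reference cells. The 7 week ratio of Fyn turned to 0.151 after thinning. Cells with 0 CD3 UMIs had more Cd79a, at 319 and 878 CPM against 18.9 and 18.8, so B-like cells or their RNA are among them, and their part in these ratios was not tested.

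Over all genes with at least 30 UMIs in the same comparison, 65 of 3216 were past 2-fold higher at both ages and 89 past it lower. The differences in cluster makeup and depth between the groups hold here too. List genes past 2-fold higher at both ages rested on few UMIs in the reference cells. Cd28 had ratios of 2.07 (0.828 to 6.67) and 7.49 (1.96 to 63.7), on 5 and 2 reference UMIs. The ubiquitin ligase gene Cblb (2.76 and 2.93, on 2 and 1) and the T cell transcription factor gene Lef1 (3.31 and 4.56, on 1 and 2) were read likewise. Tnfrsf9 had 9 UMIs against 0 at 7 weeks, which gives no fold, and 21 against 2 at 12 weeks. Past 2-fold lower were Grb2 (0.392 and 0.326), the kinase Syk (0.269 and 0.142), which takes the place of Zap70 in B cells, the NK receptor gene Klrb1c (0.247 and 0.279), the granzyme gene Gzma (0.443 and 0.333), and Cd79a, Cd79b and Lyn of the B cell list. Klrb1c and Gzma were 2 of the 15 NK and ILC1 list genes with at least 30 UMIs, and 0 were past 2-fold higher at both ages. The median ratio of that list was 1.22 at 7 weeks and 0.925 at 12 weeks, against 0.945 and 0.977 over all genes. The intervals of Cblb, Tnfrsf9 and Grb2 included 1 at both ages, and those of Cd28, Lef1 and Lyn at 7 weeks.

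Over whole clusters, cluster 9 held Cd3d closest to the T cell level and Lat farthest below it. Relative to the joined T classes of the same library, Cd3d was 0.821 and 0.860, Cd3g 0.708 and 0.672, Cd3e 0.667 and 0.695, Lck 0.757 and 0.796 and Zap70 0.639 and 0.637. Cd247, at 86.7 and 118 CPM, was 0.316 (0.219 to 0.441) and 0.410 (0.291 to 0.562) of the T level. Lat, at 161 and 140, was 0.270 (0.208 to 0.345) and 0.215 (0.157 to 0.287). Fyn was 0.390 (0.236 to 0.607) and 0.663 (0.423 to 0.991), and Lcp2 0.708 and 0.543. Cd247 and Lat, 2 of 9, were past 2-fold lower at both ages, against 9.15% of 10225 genes. No member was past 2-fold higher (3.77%). Between ages, Cd3d in cluster 9 had a ratio of 1.19 (1.02 to 1.39) and Cd3e of 0.896 (0.708 to 1.13), the directions seen in the T clusters.

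In cluster 15, Cd3e was at 31.6 and 23.6 CPM, on 5 and 2 UMIs, next to 21.0 and 16.8 in B-like cells. Cd3d was 0.136 and 0.183 of the T level, on 22 and 18 UMIs, and Lat 0.159 and 0.0912, on 15 and 5. Cd3g stood at 309 and 331, against 25.7 and 35.0 in B-like cells. Lck (480 and 437) was 0.705 and 0.621 of the T level, and Fyn (164 and 106) was 1.29 (0.837 to 1.91) and 0.968 (0.442 to 1.84). The level in cluster 9 over that in cluster 15 was 6.04 and 4.69 for Cd3d, 13.7 (5.77 to 42.8) and 16.4 (4.45 to 137) for Cd3e, 3.21 and 3.11 for Cd3g, and 1.07 and 1.28 for Lck. Both clusters held the ITAM adaptors of innate receptors, though Tyrobp was lower in cluster 9 than in cluster 15. Fcer1g stood at 944 and 980 CPM in cluster 9 and 1232 and 1975 in cluster 15, against 21.6 and 10.9 in T cells. Tyrobp stood at 367 and 540 in cluster 9 and 1971 and 2400 in cluster 15, against 22.2 and 14.4 in T cells.

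The ILC2-like cluster 14 differed from clusters 9 and 15 in Lck. Lck was nearly missing, at 44.2 and 73.4 CPM (4 and 10 UMIs), near the 49.1 and 49.6 of B-like cells and 0.0650 and 0.104 of the T level. Cd3g stood at 829 and 646 and Lat at 265 and 286, 0.445 and 0.441 of the T level. Cd3g made up 71.4% and 57.5% of its CD3 UMIs and Cd3e 7.62% and 19.0%. Cluster 15 was also mostly Cd3g, at 64.5% and 58.3%, with Cd3e at 6.58% and 4.17%. The other members in cluster 14 rested on few UMIs, such as 1 and 5 of Fyn, 8 and 29 of Cd3e and 9 and 15 of Cd247. Cluster 14 itself rested on 17 and 29 cells, of which 10 and 14 had any Cd3g UMI. In the full counts, 4 and 7 of these cells had all 3 CD3 genes, and 6 and 13 had no CD3 UMI. The pooled levels thus mix cells with and without CD3 UMIs.

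**Figure D5:**
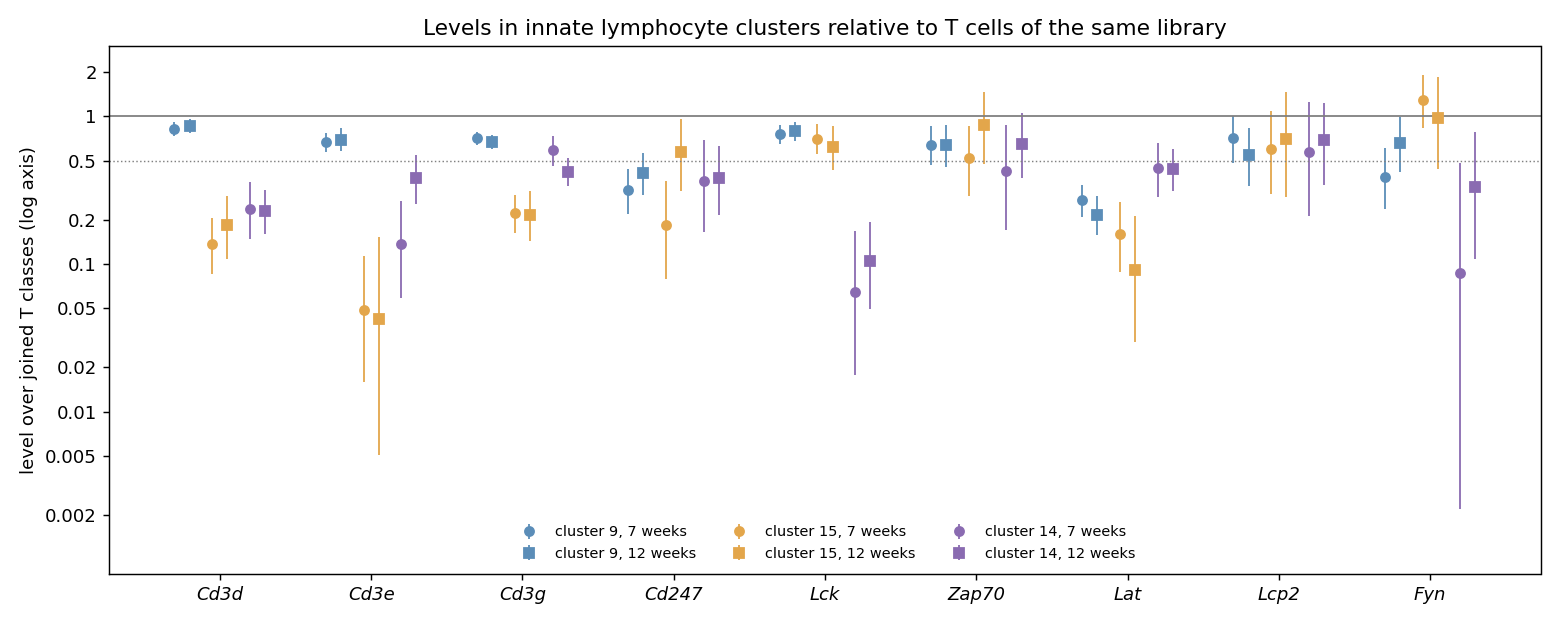
Level of each member in clusters 9, 15 and 14, named by innate lymphocyte markers, divided by its level in the joined T classes of the same library. The axis is a log axis, with circles for 7 weeks, squares for 12 weeks, exact 95% counting intervals and a dotted line at 0.5. Cluster 9 lay closest to T cells for the CD3 genes, and Lat was below 0.5 in all 3 clusters.

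Across the 13 clusters holding 20 or more cells per library, the pattern of the log2 level was shared by most members. The highest Pearson correlation between members was 0.997 (Cd3e and Cd3g) and the lowest 0.479 (Lcp2 and Fyn). The points share libraries and mix T with other cells, so these values mostly rank T against non-T clusters. Outside the members, the surface protein gene Thy1 was among the 3 most similar genes for Cd3d (0.976), Cd3e (0.982), Cd3g (0.986), Cd247 (0.966) and Lck (0.974). Rnf125, a ubiquitin ligase gene, led for Cd3d (0.979) and Lck (0.977), Frmd8 for Cd247 (0.968), Sh2d1a for Zap70 (0.974) and Bcl11b for Lat (0.970). Lcp2 and Fyn were set apart, with Fxyd5 (0.930) and Srp68 (0.912) as their most similar genes.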

How the data were processed

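Single-cell 3' libraries of sorted pancreatic CD45.1+ cells were prepared with the 10x Genomics Chromium kit, per the labels' protocols. The authors deposited whole-number UMI counts per gene and barcode, made with Cell Ranger 1.3.1 on mm10 per the submitters' processing notes. The sources used here do not give the annotation, the cell calling settings or any use of strand. No receptor genes were listed, and 0 columns were left without a sample.

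A barcode needed 200 genes and no more than 10% mitochondrial UMIs, which 4 and 8 did not meet, and Scrublet removed 2 and 8 more, too few to have found all doublets. Cells were clustered with scanpy 1.11.5 (Python 3.11.15) on 2000 variable genes without the 9 members, with 30 components, 15 neighbours and Leiden resolution 1.0. A cluster was named where at least 2 of its 10 leading genes, in at least 25% of its cells, were markers of 1 type and 3 of its markers were each in 10% of its cells. T cell classes were the clusters with at least 20 cells per library, Thy1 and Cd4 or Cd8a at 200 CPM or more and Ncr1 under 200, a rule set after the clusters were seen. It left out an interferon-led cluster of 13 and 9 cells with T cell genes.

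UMIs were summed per cluster and library as CPM (counts per 1000000). Ratios carry exact conditional binomial 95% intervals, levels Poisson and shares Clopper-Pearson intervals, and these routines were tested on simulated data. A gene counted as past a fold, 1.5 between ages or 2 between cell groups, with at least 30 UMIs. Ages were compared in clusters of 50 or more cells at each age. Shares were read after thinning each cell to 2000 UMIs, and no cell in the groups shown was shallower. Genome positions come from GENCODE on GRCm38. The members, the gene lists and the markers were chosen with earlier results of these data known. Named list genes were those past the fold, at most 5 each way per list, or else the one with the largest ratio; Csk, Ptpn22, Fyb, Ctla4 and Cd28 by age are given as examples outside that rule. Similar genes were the 3 with the highest Pearson correlation of log2(CPM + 10) over clusters of 20 or more cells per library. Alternatives varied the clustering, filters, scaling, thinning, gates and fold.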

Additional observations from a re-analysis of the deposited data

How the results depend on the processing

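No paired analysis was possible because each age had 1 library and the labels carry no replicate numbers. In the joined T classes Cd3d, Cd3e and Cd3g each kept their side of 1 in 11 of 11 alternatives, and within clusters in 63, 59 and 63 of 64. Over the 9 members, 92 of 99 joined values kept their side. Thinning to 2000 UMIs moved the joined ratios of Cd3d to 1.05, Lck to 0.979 and Fyn to 0.713. Giving each T class equal weight, an alternative chosen after seeing the data, moved Cd3e to 0.903, Cd3g to 1.16, Cd247 to 1.14 and Lcp2 to 1.13. Gates on all deposited barcodes moved Zap70 to 0.969.

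The 1 gene and cluster pair past 1.5-fold became 2 with the members kept among the variable genes, 0 with 1000 variable genes, 2 with the filter at 500 genes and 5% mitochondrial UMIs, and 2 with median of ratios scaling. It became 3 with the mean over cells, 3 without the cell with most UMIs, 7 after thinning, 10 at a smaller fold (5 over 4) and 0 at 2-fold. The 3 pathway list genes past 1.5-fold became 15 at that smaller fold, 0 at 2-fold and 5 after thinning. The cause was not tested, other than that a fold sets its own count.

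Highest over lowest T cluster levels, both libraries joined, moved at resolution 0.5 to 2.005 for Cd3d, 2.18 for Cd3e, 2.55 for Cd3g, 2.33 for Cd247 and 1.98 for Lat, and with the mean over cells to 1.98 for Cd3d. Of Ncr1-positive cells without Cd4, the share with a CD3 UMI was 81.0% and 81.9% unthinned, 77.6% and 80.0% at 4000 UMIs, and 54.4% at 7 weeks where 2 CD3 UMIs were needed. Ratios in these cells that changed side were Lck at 12 weeks with 2 Ncr1 UMIs (0.988), and Zap70 (0.967) and Fyn (0.151) at 7 weeks after thinning. Gates on all barcodes were not run within clusters, and 1 alternative for Lcp2 at 7 weeks gave no value, as the reference cells held 0 UMIs. With 1 library per age, no interval covers differences between mice or captures.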

Other observations

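Members were also found outside lymphocytes. Fyn stood at 187 and 211 CPM in the plasmacytoid DC-like cluster 12 (30 and 55 cells), above its level in the joined T classes at both ages (127 and 110), while Lck there was at 162 and 66.5. In cluster 12, 8 of 30 and 4 of 55 cells had UMIs of Cd3d, Cd3e and Cd3g together. Whether T cell RNA or doublets carry its Fyn and Lck UMIs was not tested. Lcp2 stood at 84.6 and 136 in the macrophage-like cluster 13 (20 and 47 cells), next to 115 and 117 in T cells, with Zap70 at 14.1 and 7.36. SLP-76, the product of Lcp2, is known from myeloid cells too.

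Cd3g differed between the libraries in some clusters that are not T cells. It stood at 179 and 26.9 CPM in the Lyz2-positive cluster 6, at 339 and 124 in cluster 12 and at 108 and 33.1 in cluster 13, but at 25.7 and 35.0 in the B-like cluster 0, 993 and 1029 in cluster 9 and 309 and 331 in cluster 15. In cluster 6, 15 of 60 cells at 7 weeks and 5 of 163 at 12 weeks had UMIs of Cd3d, Cd3e and Cd3g together. Whether doublets carry these UMIs was not tested.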
